A study of Mus musculus with 8 samples.

Results

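The genes described here are 10 genes of the actin contractile apparatus in mouse pluripotent cells: the smooth-muscle actin gene Acta2, the transgelins Tagln and Tagln2, the calponins Cnn1 and Cnn2, the myosin light chain gene Myl9, the tropomyosins Tpm1 and Tpm2, the alpha-actinin gene Actn1, and Srf, which encodes a transcription factor known to act on many of them. They were picked by symbol, with their levels in these libraries already known, out of 23699 entries in each deposited table, and all 10 were present at a single locus with a usable value in every library. Their difference between the cell states is therefore given as a description, with no test.

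The libraries were made from polyadenylated RNA of mouse epiblast stem cells (mEpiSC), a primed, post-implantation-like state grown with FGF2, and of mouse embryonic stem cells (mESC), the naive state of the inner cell mass grown with LIF, with 4 libraries of each. Line EpiSC5 gave mEpiSC 1, EpiSC7 gave mEpiSC 2 and mEpiSC 3, and EpiSC9 gave mEpiSC 4, while ESF122 gave mESC 1 and mESC 2 and ESF175/1 gave mESC 3 and mESC 4. The labels name no allele, transgene or drug. They do not state whether a line was sampled from independent cultures, so the spread within a line may be technical. A p-value between states rests on spread that mixes lines and libraries, and counts libraries of the same line as independent. With the line as a random effect, the correlation within lines was 0.47. A p-value between lines rests on library-to-library spread within lines alone. Every culture was kept on gelatin-coated plastic over irradiated embryonic fibroblast feeders, and the feeders were removed ahead of RNA extraction. Passaging also differed by state: mEpiSC were passaged as clumps with collagenase, mESC as single cells with trypsin.

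Smooth-muscle actin, transgelin, calponin, tropomyosin and myosin light chain form and regulate contractile actin filaments. Srf, the serum response factor, binds a DNA element called the CArG box and, together with cofactors that sense monomeric actin, drives many of these genes. The set is best known from smooth muscle and from activated fibroblasts, so feeder cells are a possible source of the same RNA. For that reason each gene is set beside Col1a1, the collagen chain typical of fibroblasts, in the same library. In bulk RNA, fewer cells of a type and less RNA per cell cannot be told apart.

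Marker genes matched the labelled states: 5 of 5 mESC markers were lower and 5 of 5 mEpiSC markers higher in mEpiSC (limma, adjusted p under 0.05), and 4 of 4 general pluripotency genes were at 1 FPKM or more in every library. FPKM, the unit throughout, divides the fragments of a gene by its transcript length and by library depth. The deposited intervals implied 25300000 to 38600000 fragments for mEpiSC and 24800000 to 38300000 fragments for mESC libraries. The 18 fibroblast markers summed to 74.3 to 581.8 FPKM in mEpiSC and 7.8 to 311.3 FPKM in mESC, and Fap in mESC 4 was the only value listed at 0. In mESC 2 the 5 mEpiSC markers had a mean log2 level of 2.94, against 0.94 to 1.65 in the other mESC libraries.

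The upstream sequences of 3 of the genes hold an exact CArG box, the Srf element, read as CCWWWWWWGG with W for A or T. They are shown because they carry the feature that links Srf to its targets. The sequences are the 250 bases before the start of the gene from RefSeq (build GRCm38.p6), 5′ to 3′ on the strand of the gene, with the CArG box in capitals.
Srf (chr17:46556163-46556412, minus strand): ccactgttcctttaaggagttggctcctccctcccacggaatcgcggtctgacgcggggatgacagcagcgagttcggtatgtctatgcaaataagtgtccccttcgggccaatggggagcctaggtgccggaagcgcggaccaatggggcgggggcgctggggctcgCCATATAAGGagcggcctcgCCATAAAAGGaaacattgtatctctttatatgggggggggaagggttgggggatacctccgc
Cnn2 (chr10:79988350-79988599, plus strand): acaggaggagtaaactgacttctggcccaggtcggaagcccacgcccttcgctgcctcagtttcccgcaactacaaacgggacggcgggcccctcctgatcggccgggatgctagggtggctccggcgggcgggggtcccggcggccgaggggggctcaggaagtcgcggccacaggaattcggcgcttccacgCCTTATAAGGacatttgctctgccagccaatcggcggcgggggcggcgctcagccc
Myl9 (chr2:156775214-156775463, plus strand): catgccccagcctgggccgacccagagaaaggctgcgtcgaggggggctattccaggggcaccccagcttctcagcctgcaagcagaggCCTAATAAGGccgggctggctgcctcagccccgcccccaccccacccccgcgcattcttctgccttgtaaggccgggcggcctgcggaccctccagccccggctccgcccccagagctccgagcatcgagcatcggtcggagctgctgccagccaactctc
Srf, which is known to act on its own gene, holds 2 boxes, with first bases at positions −82 and −62 from the start. The first base of the box was at −56 in Cnn2 and at −161 in Myl9. Of the 10 genes 9 were matched in the promoter table, all but Tagln. Of the 9, 3 held an exact CArG box in the window from 250 bases before to 50 bases after the start. Among all 32851 promoters of the same length 1.63% did. Near matches were not counted, such as ccctatatgg and ccttgtttgg in the 250 bases before the start of Acta2. The MCAT motif, CATTCC on either strand, which TEAD factors bind, was found in Acta2, Tagln2 and Tpm1, 3 of 9, against 14.7% of all promoters. Neither motif overlapped the other in any of these 9 windows. Among promoters of the related gene lists described below, 12.5% to 30.8% held an exact CArG box and 7.69% to 42.1% the MCAT motif. The 30.8%, of the list of Srf cofactors and targets, rests on several promoters of 1 gene, Egr2. Neither motif is thus particular to the 10 genes. A match of letters is not a binding site, and its absence says nothing about the factor.

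Acta2 (mm9, chromosome 19, 34315580 to 34329826, as the tables list it) had, as a ratio, the widest gap between the ranges of the states among the 10 genes. It measured 32.0, 11.8, 14.3 and 35.0 FPKM in mEpiSC 1 to 4, against 1.82, 1.87, 0.403 and 1.84 FPKM in mESC 1 to 4. The ranges did not overlap: the lowest mEpiSC library, of the line EpiSC7, was 6.28 times the highest mESC library. Behind these values lay 894 to 3385 implied fragments in mEpiSC and 28 to 182 in mESC, so the low level of mESC 3 rests on few fragments (deposited 95% interval 0.251 to 0.555 FPKM). The means were 23.3 ± 11.9 FPKM in mEpiSC and 1.49 ± 0.722 FPKM in mESC (SD, n = 4 each), a difference in log2(FPKM + 1) of 3.20 (SE 0.39).

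Tagln (chromosome 9, 45737710 to 45744141), also called SM22 alpha, an actin-bundling protein used as an early smooth-muscle marker, measured 59.5, 38.2, 47.0 and 145 FPKM in mEpiSC 1 to 4, against 3.79, 18.8, 1.27 and 7.91 FPKM in mESC 1 to 4. Every mEpiSC library lay above every mESC library, with EpiSC9 far above the other mEpiSC libraries and mESC 2 above the other mESC libraries (log2 difference 3.27, SE 0.64). The mESC values spanned a wider range than those of Acta2. Of 50-base windows in Tagln transcripts 47.6% also occurred in transcripts of other genes of GENCODE vM21, most of them in Gm48529. Windows were matched on either strand. Without a statement on strand, reads from shared windows cannot be assigned to 1 gene.

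Tagln2 (chromosome 1, 174430376 to 174437506), the broadly expressed transgelin, measured 102, 65.4, 93.3 and 197 FPKM in mEpiSC 1 to 4, against 54.9, 54.6, 51.5 and 76.6 FPKM in mESC 1 to 4. It was the only one of the 10 genes whose states overlapped, since mEpiSC 2 lay below mESC 4 (log2 difference 0.83, SE 0.30). The transgelin pool differed in make-up as well as in size. Tagln was 32.0% to 41.8% of the summed FPKM of Tagln, Tagln2 and Tagln3 in mEpiSC, and 2.33% to 24.9% in mESC, where mESC 2 held the highest share.

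**Figure D1:**
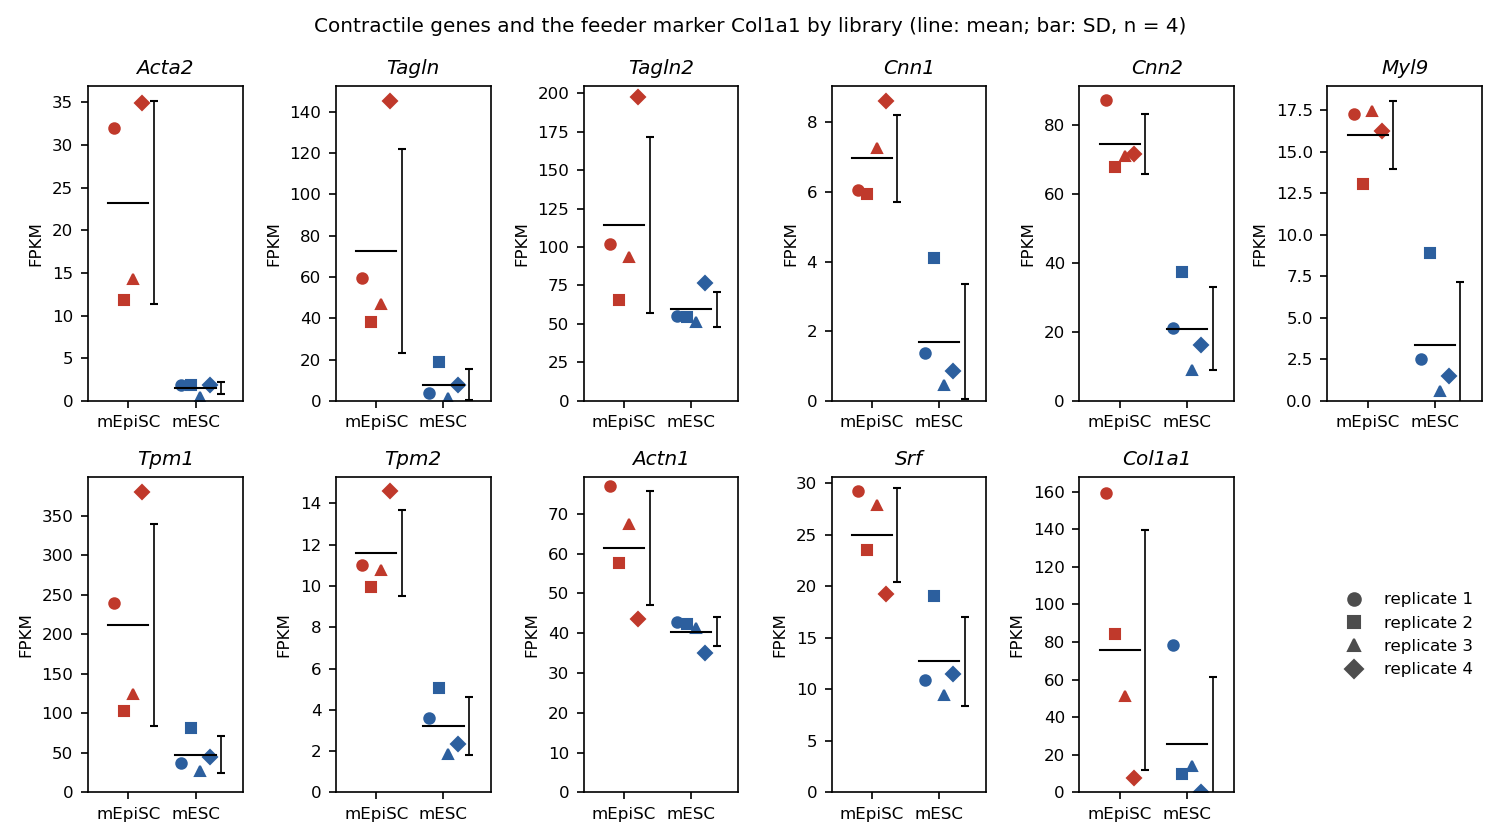
FPKM of the 10 contractile genes and of the fibroblast marker Col1a1 in each library (vertical axes linear from 0, 1 scale per gene), with mEpiSC left of mESC; symbols give the replicate, lines the mean of 4 libraries and bars the SD, cut at 0 where they would pass below it. In 9 of the 10 genes all mEpiSC points lie above all mESC points, Tagln2 being the exception, and Col1a1 overlaps.

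Calponins bind actin and restrain myosin; Cnn1 is the smooth-muscle form and Cnn2 is expressed more widely. Cnn1 (chromosome 9, 21903696 to 21913665) measured 6.04, 5.94, 7.27 and 8.62 FPKM in mEpiSC 1 to 4, against 1.38, 4.12, 0.468 and 0.847 FPKM in mESC 1 to 4. Cnn2 (chromosome 10, 79451344 to 79458145) measured 87.4, 67.9, 71.1 and 71.7 FPKM in mEpiSC 1 to 4, against 21.1, 37.4, 9.04 and 16.3 FPKM in mESC 1 to 4. The mEpiSC libraries agreed closely for both genes, while the mESC libraries ranged widely, with mESC 2 highest and mESC 3 lowest (log2 differences 1.72, SE 0.35, for Cnn1 and 1.94, SE 0.34, for Cnn2). Cnn2 made up 30.5% to 43.5% of the summed FPKM of Cnn1, Cnn2 and Cnn3 in mEpiSC and 9.73% to 26.9% in mESC, and Cnn1 at most 3.78% in any library.

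Myl9 (chromosome 2, 156601199 to 156607393), the regulatory light chain of smooth-muscle myosin, measured 17.3, 13.1, 17.4 and 16.3 FPKM in mEpiSC 1 to 4, against 2.53, 8.93, 0.569 and 1.48 FPKM in mESC 1 to 4. The order of the mESC libraries was that of Cnn2, from mESC 2 down to mESC 3, and the states did not overlap (log2 difference 2.31, SE 0.48). The light chains used outside muscle, Myl12a and Myl12b, named after their values were seen, held most of the family: Myl9 was 5.72% to 8.39% of the summed FPKM of these 3 genes in mEpiSC and 0.405% to 4.55% in mESC.

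Tropomyosins lie along the actin filament and set which myosins and other proteins reach it. Tpm1 (chromosome 9, 66870399 to 66897020) was the most abundant of the 10 genes in mEpiSC, at 239.9, 103, 124 and 381 FPKM in mEpiSC 1 to 4, against 37.7, 81.1, 27.1 and 44.8 FPKM in mESC 1 to 4. Tpm2 (chromosome 4, 43527583 to 43536260) measured 11.0, 9.95, 10.8 and 14.6 FPKM in mEpiSC 1 to 4, against 3.61, 5.05, 1.88 and 2.34 FPKM in mESC 1 to 4. For both genes the states did not overlap and mEpiSC 4 was highest, but the mEpiSC libraries spread more widely in Tpm1 than in Tpm2 (log2 differences between states 2.05, SE 0.45, and 1.62, SE 0.24).

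Within the tropomyosin family the leading gene differed between the states. Tpm1 made up 44.1% to 71.3% of the summed FPKM of Tpm1, Tpm2, Tpm3 and Tpm4 in mEpiSC and 24.8% to 36.4% in mESC. Tpm3 made up 4.32% to 10.3% in mEpiSC and 35.0% to 56.0% in mESC, where it led in 3 of the 4 libraries. Tpm3, the main cytoskeletal tropomyosin of many non-muscle cells and named here after its values were seen, was the 1 gene of its list that fell, with 23.8, 23.9, 20.5 and 23.1 FPKM in mEpiSC 1 to 4, against 61.0, 78.0, 61.2 and 88.3 FPKM in mESC 1 to 4 (log2 −1.60, SE 0.14; limma, adjusted p = 0.00012). Its value in mEpiSC 4 carried the status FAIL, and 40.0% of its windows also occur in Tpm3-rs7, so its level is uncertain.

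**Figure D2:**
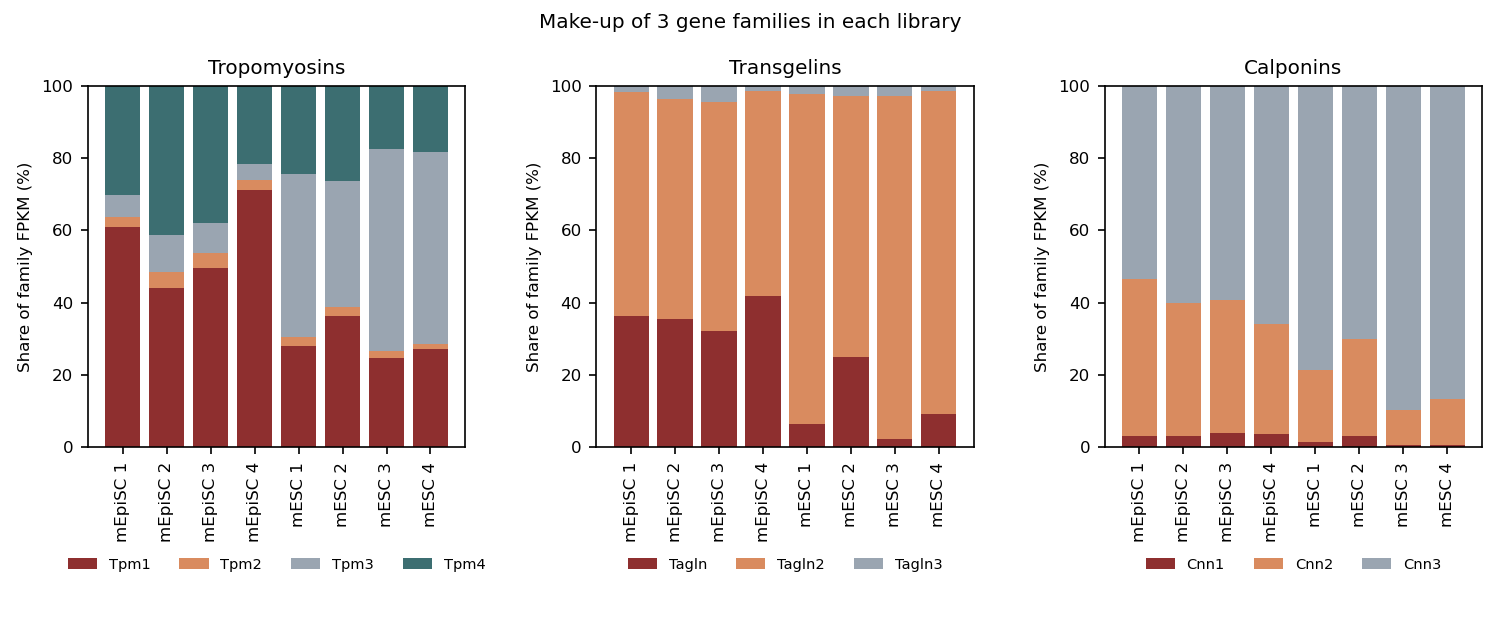
Share of each gene in the summed FPKM of its family (vertical axes, percent) in each library, mEpiSC left of mESC, for the tropomyosins, transgelins and calponins. Tpm1 and Tagln take larger shares in every mEpiSC library than in any mESC library, and Tpm3 takes smaller ones.

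Actn1 and Srf differed least among the genes whose states did not overlap. Actn1 (chromosome 12, 81268528 to 81361358), an alpha-actinin that crosslinks filaments at adhesions, measured 77.0, 57.6, 67.4 and 43.5 FPKM in mEpiSC 1 to 4, against 42.9, 42.2, 41.4 and 34.9 FPKM in mESC 1 to 4. Srf (chromosome 17, 46683787 to 46693111) measured 29.3, 23.5, 27.8 and 19.2 FPKM in mEpiSC 1 to 4, against 10.9, 19.0, 9.46 and 11.4 FPKM in mESC 1 to 4. In both genes mEpiSC 4 was the lowest mEpiSC library and nearly met the highest mESC library, at 1.01 times its level in each case (log2 differences 0.57, SE 0.18, and 0.95, SE 0.22). Actn1 was 34.4% to 46.4% of the summed alpha-actinin FPKM in mEpiSC and 25.9% to 30.3% in mESC, and Actn4 was the larger part in every library.

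Thus in 9 of the 10 genes every mEpiSC library lay above every mESC library. Of the 11556 genes tested (1 FPKM or more in 4 or more libraries) 22.2% were likewise above and 14.9% below in all mEpiSC libraries. Nothing is read from this contrast, because the genes were chosen with these levels known. In the fit on which the SE values rest, 37.3% of all genes passed the test, 23.1% as higher and 14.2% as lower in mEpiSC. Higher genes made up 61.9% of the calls on the deposited values, but 54.1% with median ratio scaling and 49.8% with quantile normalization. The median log2 difference of all genes was 0.083 on the deposited values, 0.013 with the first scaling and −0.019 with quantiles, and all 10 genes stayed higher in mEpiSC under both.

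Within the states the genes did not all vary alike. mEpiSC 4 was the highest mEpiSC library for 6 of the 10 genes, Acta2, Tagln, Tagln2, Cnn1, Tpm1 and Tpm2 (42.8% of all genes tested), and the lowest for Actn1 and Srf. mEpiSC 2 was the lowest mEpiSC library for the other 8 (14.0% of all genes tested). mESC 2 was the highest mESC library for 8 of the 10 genes, all but Tagln2 and Actn1 (33.5% of all genes tested), and mESC 3 the lowest for 9, all but Actn1 (27.1%). After the state mean was subtracted, log2 levels of Cnn1, Cnn2, Myl9 and Tpm2 were correlated over the 8 libraries (Pearson correlation 0.862 to 0.965 between pairs). This rests mainly on the mESC libraries. In mEpiSC the highest library differed: mEpiSC 1 for Cnn2, mEpiSC 3 for Myl9, and mEpiSC 4 for Cnn1 and Tpm2. Acta2 and Tpm1 (0.882) and Tagln and Tpm1 (0.898) were correlated too, whereas Tagln2 and Actn1 went in opposite directions (−0.649). Actn1 was also negatively correlated with Acta2, Tagln, Cnn1, Tpm1 and Tpm2 (−0.389 to −0.052). Tagln2 was near 0 with Cnn2 (0.020) and Myl9 (0.021) and negative with Srf (−0.310), and Acta2 with Srf was at 0.165. These values describe 8 libraries that share 5 lines and differ in depth, and no p is given.

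By the same measure, over 8110 genes of mean level of at least 5 FPKM, the 5 genes most like Tagln were Pfn2, which encodes an actin monomer-binding profilin (0.993), Ilk, the integrin-linked kinase (0.986), Ptp4a2 (0.985), Eif5a2 (0.959) and Gpr89 (0.957). Pfn2 measured 33.8, 28.9, 30.0 and 40.4 FPKM in mEpiSC 1 to 4, against 9.74, 14.0, 8.34 and 11.7 FPKM in mESC 1 to 4, and rose (log2 1.53, SE 0.17; limma, adjusted p = 0.00038). Ilk rose too (log2 1.34, SE 0.19; limma, adjusted p = 0.0011), though 60.9% of its windows occur in other genes, most of them in Taf10. The 5 genes most like Acta2 were Txndc15 (0.976), Dcaf11 (0.955), B3gnt1 (0.953), Tulp3 (0.950) and Sacm1l (0.950). Of these only Txndc15 passed the test between states, with a log2 difference of 0.74 (SE 0.14; limma, adjusted p = 0.0044).

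Col1a1, the fibroblast marker (chromosome 11, 94797583 to 94813170), measured 159, 84.5, 51.5 and 7.92 FPKM in mEpiSC 1 to 4, against 78.4, 9.71, 13.9 and 0.481 FPKM in mESC 1 to 4. Its states overlapped: mESC 1 was above mEpiSC 3 and mEpiSC 4. Actn1 and Srf were, like Col1a1, highest in mEpiSC 1 and lowest in mEpiSC 4 among the mEpiSC libraries. Actn1 was also highest in mESC 1 and lowest in mESC 4, as Col1a1 was. The Srf cofactor gene Mkl1 had the same extremes (7.06 and 1.79 FPKM in mEpiSC, 5.77 and 2.43 FPKM in mESC). Over all genes tested, mEpiSC 4 and mESC 4 deviated alike from their state means (correlation 0.514). Whether the shared order comes from feeders or from the libraries was not tested. Acta2, Tagln and Tpm1 were highest of all 8 libraries in mEpiSC 4, which had the least Col1a1 among mEpiSC. The part of feeder RNA in these levels was not tested.

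Divided by Col1a1 of the same library, all 10 genes overlapped between states. Acta2 was at 0.201, 0.139, 0.277 and 4.42 times Col1a1 in mEpiSC 1 to 4, against 0.0233, 0.193, 0.0289 and 3.83 times Col1a1 in mESC 1 to 4. Tagln was at 0.374, 0.452, 0.913 and 18.3 times Col1a1 in mEpiSC 1 to 4, against 0.0484, 1.94, 0.0909 and 16.4 times Col1a1 in mESC 1 to 4. The ratio was highest in the replicate 4 library of each state.

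Single libraries of near Col1a1 level are given side by side as a description only, from which nothing is read, because the genes were chosen with these levels known. mEpiSC 2 and mESC 1 had 84.5 and 78.4 FPKM of Col1a1, and all 10 genes were higher in mEpiSC 2, by 1.19 times for Tagln2 to 10.1 times for Tagln with a median of 2.98 times (59.3% of all genes were higher in that library). mEpiSC 4 and mESC 2 had 7.92 and 9.71 FPKM of Col1a1, and all 10 were higher in mEpiSC 4, by 1.01 times for Srf to 18.7 times for Acta2 with a median of 2.49 times (56.7% of all genes). Set against mESC 1, mEpiSC 4 had 0.101 times the Col1a1, and the 10 genes were at 1.01 times for Actn1 to 38.3 times for Tagln (59.7% of all genes were higher). When fibroblast marker level entered the fit as a covariate, the log2 differences between states were 3.24 for Acta2, 3.94 for Tagln, 2.34 for Tpm1 and 0.32 for Actn1, against 3.20, 3.27, 2.05 and 0.57 without it. These 4 are examples and do not stand for the size of the change in the rest of the 10 genes, which also stayed positive.

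**Figure D3:**
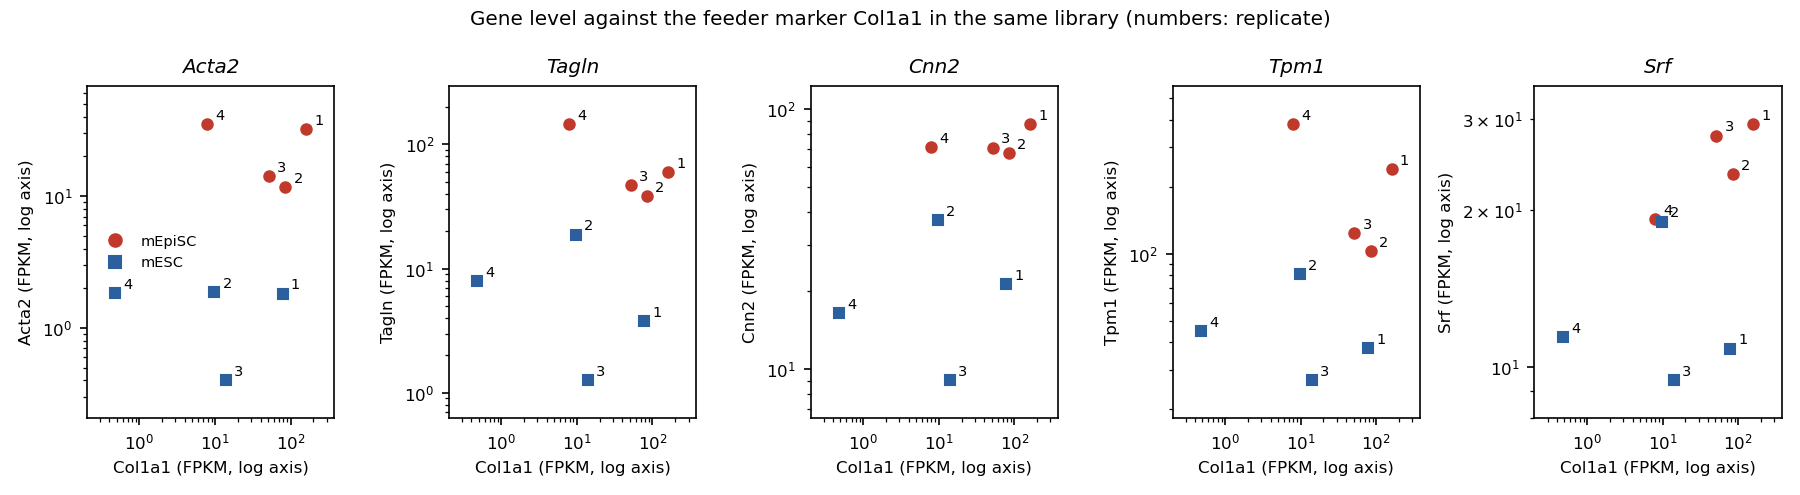
FPKM of 5 of the contractile genes (vertical axes, logarithmic) against FPKM of Col1a1 in the same library (horizontal axes, logarithmic), for mEpiSC (red circles) and mESC (blue squares) with replicate numbers. mEpiSC 4, at 7.92 FPKM of Col1a1, lies at the top for Acta2, Tagln and Tpm1. Every mESC point, also mESC 1 at 78.4 FPKM of Col1a1, lies below every mEpiSC point in each panel. This follows from the states of these 5 genes not overlapping, and nothing is read from it.

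A list of 16 further contractile and adhesion genes is called the smooth muscle list here. It is not limited to genes specific to smooth muscle, and its counts do not stand for a smooth-muscle programme. Its genes Myh11, Lmod1, Synpo2, Mylk and Actg2 were too low to be tested. This list and those that follow were chosen with earlier results of these data known, so their counts and medians are descriptions and no independent evidence of a direction. Of the 11 tested, 8 rose and none fell in mEpiSC, and all 11 had a positive log2 difference (median 1.15, against 0.083 for all genes, of which 23.1% rose, and 1.43 for the tested fibroblast markers). Cald1, the actin-binding caldesmon, rose to 56.3, 26.8, 38.2 and 53.6 FPKM in mEpiSC 1 to 4, against 11.0, 9.31, 5.71 and 6.12 FPKM in mESC 1 to 4 (log2 2.29, SE 0.27; limma, adjusted p = 0.00049). Tpm4 (log2 1.67, SE 0.29), the LIM-domain gene Csrp1 (1.50, SE 0.23) and Vcl, the vinculin of adhesions (1.25, SE 0.18), rose as well, with adjusted p of 0.0024, 0.0015 and 0.0010 in limma. Of the windows of Vcl 38.2% also occur in Ap3m1. The other genes that rose were Pdlim7, Tgfb1i1, Tagln3 and the light chain gene Myl6, by 0.71 to 1.18 on the log2 scale. The smoothelin gene Smtn (log2 0.79, SE 0.36), the desmin gene Des (0.51, SE 0.44) and Cnn3 (0.37, SE 0.16) did not pass, with adjusted p of 0.12, 0.40 and 0.097 in limma. With the replicate number as a block Smtn and Cnn3 passed (adjusted p = 0.0076 and 0.016), and without mEpiSC 4 Smtn did (0.021), as did Des without mEpiSC 1 (0.037).

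Levels within this list ranged widely. Myh11, the smooth-muscle myosin heavy chain, singled out by its level, measured 0.027 to 0.055 FPKM in mEpiSC and 0.031 to 0.037 FPKM in mESC. With it, Lmod1, Synpo2 and Actg2 stayed under 1 FPKM in every library, 4 of the 16 listed genes, while Smtn was at 4.91 to 13.1 FPKM in mEpiSC and 2.58 to 8.44 FPKM in mESC. Of the 7 cardiomyocyte markers, which summed to 19.5 to 33.1 FPKM in mEpiSC and 3.2 to 4.9 FPKM in mESC, only Actc1 and Myl7 were tested, and Actc1 rose. Actc1 held most of that sum in every mEpiSC library. Untested Tnni3 averaged 1.94 ± 0.804 FPKM in mEpiSC and 0.654 ± 0.101 FPKM in mESC (SD, n = 4 each, here and below). Myh7 averaged 1.03 ± 1.51 FPKM in mEpiSC, with 3.29 FPKM in mEpiSC 3, and 0.098 ± 0.063 FPKM in mESC. Myh6 went the other way, at 0.303 ± 0.307 FPKM in mEpiSC and 0.432 ± 0.291 FPKM in mESC. Tnnt2 and Nkx2-5 were also lower on average in mEpiSC, and at most 0.12 and 0.138 FPKM in any library. The 4 tested primitive endoderm markers of 6 all rose. The 6 summed to 12.9 to 78.5 FPKM in mEpiSC, highest in mEpiSC 1, and 3.0 to 5.5 FPKM in mESC. Untested Sox7 reached at most 0.919 FPKM, and the summed mEpiSC markers were also highest in mEpiSC 1 (1147.4 FPKM). The part of the endoderm markers in the levels of the 10 genes was not tested. Of 16 tested fibroblast markers of 18, 5 rose, with a median log2 difference of 1.43; their part in the counts of the contractile lists was not tested.

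Of the striated-muscle paralogs only 5 of 16 were tested, and the 2 that rose were the sarcomeric actins. Actc1, cardiac actin, rose to 13.1, 16.4, 22.3 and 15.1 FPKM in mEpiSC 1 to 4, against 0.098, 1.45, 0.040 and 0.290 FPKM in mESC 1 to 4 (log2 3.66, SE 0.29; limma, adjusted p = 5.1e-05). Acta1, skeletal actin, rose to 4.25, 5.14, 8.30 and 19.4 FPKM in mEpiSC 1 to 4, against 0.351, 1.50, 0.127 and 0.813 FPKM in mESC 1 to 4 (log2 2.45, SE 0.43; adjusted p = 0.0026). For both genes, as for Tagln, mESC 2 was the highest mESC library.

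The muscle actins were nonetheless a small part of all actin RNA. Acta2 made up 0.793% to 2.74% of the summed FPKM of 6 actin genes in mEpiSC and 0.030% to 0.128% in mESC. Actb, the main non-muscle actin, measured 1339, 1354, 1339 and 1023 FPKM in mEpiSC 1 to 4, against 1374, 1397, 1326 and 1548 FPKM in mESC 1 to 4, and did not pass the test (log2 −0.17, SE 0.14; limma, adjusted p = 0.38). Actg1 rose to 123, 96.6, 108 and 185 FPKM in mEpiSC 1 to 4, against 42.9, 71.6, 39.4 and 70.6 FPKM in mESC 1 to 4 (log2 1.19, SE 0.26; limma, adjusted p = 0.0078), though 45.6% of its windows recur in other genes.

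Among 26 tested genes of the actin cytoskeleton and adhesion, 10 rose and 1, Tpm3, fell (median log2 difference 0.50), where 23.1% of all genes rose and 14.2% fell. Those with the largest differences were Cyr61 (log2 3.02, SE 0.52; limma, adjusted p = 0.0024) and Ctgf (1.96, SE 0.39; adjusted p = 0.0047), matricellular proteins whose genes respond to Srf and to the Hippo pathway, and Fhl2, a LIM-domain cofactor (2.15, SE 0.38; adjusted p = 0.0027). Cyr61 measured 239.5, 97.5, 145 and 243 FPKM in mEpiSC 1 to 4, against 17.8, 61.6, 10.6 and 13.4 FPKM in mESC 1 to 4. Zyx, the adhesion protein zyxin, rose in the test (log2 1.83, SE 0.51; adjusted p = 0.020), but its call was lost without mEpiSC 2 (adjusted p = 0.056), mESC 3 (0.059) or mESC 4 (0.051), with line as a random effect (0.054), with 1 mean per line (0.094) and with the fibroblast covariate (0.13). Without mESC 4 the list had 2 lower genes, Tpm3 and Actn4.

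Srf cofactors and immediate early Srf targets formed a list of 13. Of 12 tested genes 5 rose (median log2 difference 0.43), where 23.1% of all genes did, and the 5 were targets: Fos (log2 2.74, SE 0.34; limma, adjusted p = 0.00059), Fosb (2.52, SE 0.51), Egr3 (1.87, SE 0.35), Egr2 (1.64, SE 0.35) and Junb (1.41, SE 0.20). Fos, a subunit of the AP-1 factor, measured 76.4, 83.7, 109.5 and 120.5 FPKM in mEpiSC 1 to 4, against 19.3, 20.7, 13.4 and 5.95 FPKM in mESC 1 to 4. The immediate early targets Egr1 (log2 0.65, SE 0.35; adjusted p = 0.18) and Ier2 (−0.10, SE 0.18; adjusted p = 0.68) did not pass, though Egr1 did with the replicate number as a block (adjusted p = 0.023). Mkl1 and Mkl2, the actin-sensing cofactors, did not pass the test (log2 −0.03, SE 0.35, and −0.29, SE 0.26; adjusted p = 0.96 and 0.43). Myocd, the cofactor of heart and smooth muscle, is named because of its level in mEpiSC 1: it measured 3.00, 0.099, 0.246 and 0.0911 FPKM in mEpiSC 1 to 4, against 0.0316 FPKM or less in mESC.

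**Figure D4:**
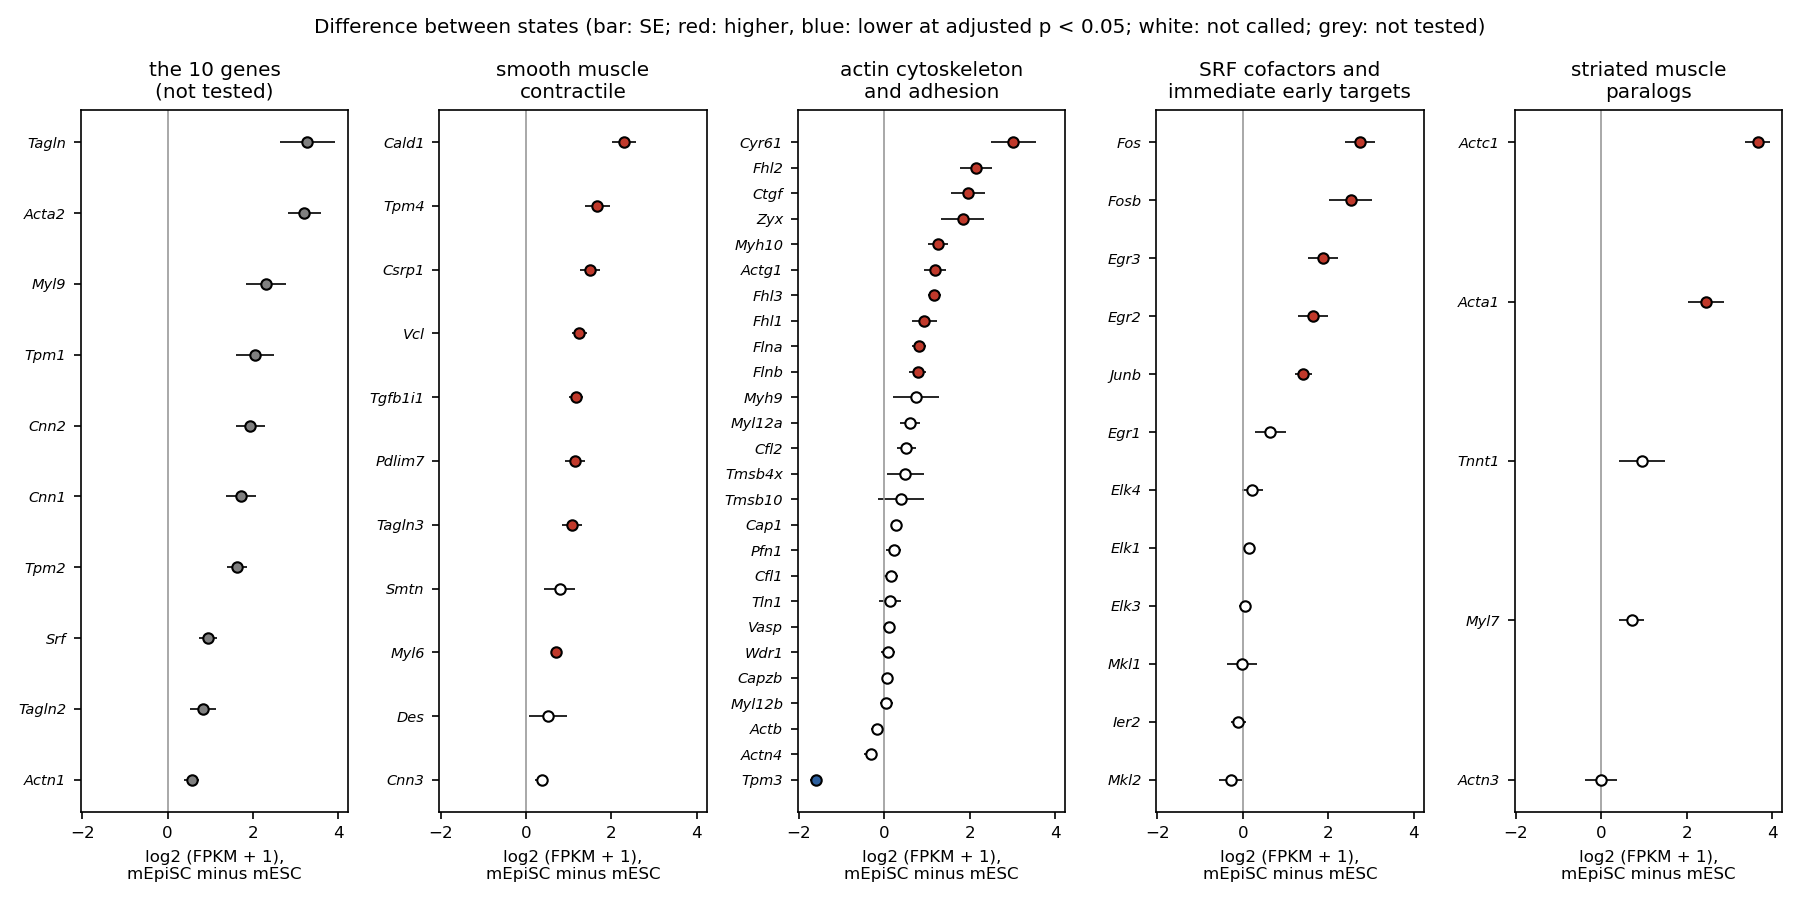
Difference in log2(FPKM + 1) of mEpiSC minus mESC (horizontal axes) for the 10 contractile genes, which were not tested (grey), and for the tested genes of 4 related lists, with SE bars; red genes were higher and the blue gene, Tpm3, lower at an adjusted p under 0.05, and white genes did not pass. Of the smooth muscle list 8 of 11 genes are red, and of the Srf list 5 of 12.

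The lines of each state were compared in a limma fit with a mean for each of the 5 lines. The genes were chosen with their levels in these same libraries known, so the counts are no independent evidence about the lines. Between the mESC lines, ESF175/1 against ESF122, 0 of the 10 genes passed at an adjusted p under 0.05, while 0.762% of all genes did. At an unadjusted p under 0.05 there were 4 of the 10, Cnn1, Cnn2, Myl9 and Tpm2, all lower in ESF175/1, where 14.9% of all genes passed that level and 9.25% passed it as lower. Without mESC 2 only Tpm2 of these 4 did, and the log2 difference was −0.84 for Myl9 and −0.53 for Cnn1, against −1.58 and −1.08 with it. Myl9 averaged 1.03 FPKM in ESF175/1 and 5.73 FPKM in ESF122 (log2 −1.58, SE 0.49; limma, adjusted p = 0.23), and Tpm2 averaged 2.11 FPKM in ESF175/1 and 4.33 FPKM in ESF122 (log2 −0.77, SE 0.19; limma, adjusted p = 0.16). Within ESF122 the libraries themselves differed widely, with Myl9 at 2.53 FPKM in mESC 1 and 8.93 FPKM in mESC 2.

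Among the mEpiSC lines the F test also called 0 of the 10 genes, against 2.6% of all genes. At an unadjusted p under 0.05 there were 4, Acta2, Tagln2, Tpm1 and Actn1, against 24.7% of all genes. Acta2 was at 32.0 FPKM in EpiSC5, 13.0 FPKM on average in EpiSC7 and 35.0 FPKM in EpiSC9 (limma, adjusted p = 0.12). EpiSC5 and EpiSC9 have a single library each and are assumed to vary like the others, so the spread in this test comes from EpiSC7 and the mESC lines alone, and a difference of line cannot be told apart from one of library. Without mESC 3 or without mESC 4, which enter through the shared estimate of spread, 3 genes passed: Acta2 (adjusted p = 0.0079 and 0.0083), Tagln2 (0.025 and 0.025) and Actn1 (0.047 and 0.047). More than 2.6% of all genes passed there too: without mESC 3 an unadjusted p of 0.0086 in the F test was enough for Actn1. The share of all genes was not counted in these fits, so nothing is read from the 3.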

How the data were processed

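Each library has 1 deposited table of FPKM values, each value carrying a status and a 95% interval. The authors made them, per the submitters' processing notes, with TopHat2 2.0.6 and Cufflinks 2.0.2 on mm9 (annotation and strandedness: not given in the sources used here). The 248 symbols at several loci were left out. For the rest, log2(FPKM + 1) went into limma 3.58.1 under R 4.3.3, with a robust, intensity-trended prior, since FPKM are no input for a count model. Tests covered the 11556 genes reaching 1 FPKM in 4 or more libraries, and a call is a Benjamini-Hochberg adjusted p under 0.05. The pseudocount of 1 understates differences of low genes. The fits were tested on simulated data with known changes.

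The 10 genes and the lists were chosen with earlier results of these data known. Named list genes were the up to 4 with the largest difference past the test and a mean of at least 5 FPKM in a state, and Actb and Actg1. Implied fragments were computed from each value and its interval and came out whole for 80.3% to 81.2% of genes under 100 fragments (tolerance 0.05). The intervals cover counting error only. Libraries of 1 group differed by over 3 SE for 44.1% or more of genes, so no table is a copy of another in its group. Whether libraries of a line share 1 culture cannot be told from this, because these SE leave out variation from library preparation.

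Replicate numbers are shared by the states. The correlation of deviations from the state means was 0.217, 0.153, 0.185 and 0.514 for same-numbered libraries 1 to 4. Each exceeds 0.1, the bound set for pairing, although the highest correlation with another number was 0.208 for both replicate 2 and replicate 3. No label states a pairing. All values and calls printed come from the fit without the block unless the block is named.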

Additional observations from a re-analysis of the deposited data

Results flagged for a closer look

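In 74 checks of 4 libraries each, 4 had a library far from the other 3 by the 95% bound on Dixon's ratio of gap to range, which chance passes in about 1 of 20 checks. For Acta2, mESC 3 stood apart at 0.403 FPKM, the rest of mESC lying at 1.82 to 1.87 FPKM (ratio 0.965). Tagln2 was at 76.6 FPKM in mESC 4 against 51.5 to 54.9 FPKM (ratio 0.865). Cyr61 was at 61.6 FPKM in mESC 2 against 10.6 to 17.8 FPKM (ratio 0.858). Actb was at 1023 FPKM in mEpiSC 4 against 1339 to 1354 FPKM in the other mEpiSC libraries (ratio 0.953).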

How the results depend on the processing

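The log2 differences of the 10 genes were positive under all 21 alternatives, and 6 of 209 values moved by 1 SD or more, all with a pseudocount of 0.1 or 5 (Acta2 2.03 to 3.92, Cnn1 0.86 to 2.37, Myl9 down to 1.42, Tpm2 down to 1.02). Over all genes, 2665 were higher and 1640 lower; a mean of at least 5 FPKM gave 1597 higher, the cell line as a random block 1046 lower, and 1 mean per line 865 higher and 557 lower. With 1 mean per line 5 cytoskeleton genes were higher, and Fhl2, Egr3, Pdlim7 and Tagln3 lost their calls (adjusted p = 0.052, 0.0502, 0.065 and 0.072). That list had 0 lower genes with status OK in all libraries, since Tpm3 left the test, and 2 with the fibroblast covariate and with replicates 1 to 3; leaving out each library in turn gave 1 to 2. The striated list had 6 higher genes with no filter, where 3285 of 19479 genes were higher, and 1 with a mean of at least 5 FPKM. In the F test over mEpiSC lines 1 of the 10 genes, Acta2, passed with a pseudocount of 5, and 0 to 3 did without each library. The share of all genes passing in those fits was not counted. With the replicate number as a block more of all genes passed, 3150 higher against 2665 and 2055 lower against 1640. In that fit, genes higher in mEpiSC numbered 10 against 8 in the smooth muscle list, 14 against 10 in the cytoskeleton list and 6 against 5 in the Srf list. Of the genes named, Smtn, Cnn3, Myl12a and Egr1 passed with the block and not without it. The causes were not tested. Depth limits the lowest values, such as the 28 fragments of Acta2 in mESC 3, and 4 libraries per state with shared lines limit the tests.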
